A study of Sus scrofa with 6 samples.

Results

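The cytosolic ribosomal proteins of pig skeletal muscle were compared between the longissimus dorsi muscle (LDM) and the psoas major muscle (PMM). They were taken as the array probes whose description named a 40S, 60S or other ribosomal protein without the words mitochondrial or kinase, or whose gene name was RPL or RPS with a digit, and 163 of 43603 probes met this rule, which used no measured value. Both muscles came from female Landrace pigs weaned at 28 days and slaughtered at 210 days of age after 24 h without feed, and each muscle was measured on 3 one-colour Agilent arrays. The study drew both muscles from the same 3 pigs on one feeding scheme, described LDM as the paler muscle with more fast fibres and fewer mitochondria than PMM, and gave no treatment. The extraction protocol names adipose tissue as its material, although every sample is labelled as muscle.

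Cytosolic ribosomes make nearly all proteins of a cell. The small (40S) subunit holds the decoding site and reads the mRNA, whereas the large (60S) subunit holds the peptidyl transferase centre, and most of their proteins are present in a single copy per ribosome and are made in step with each other. The mRNAs of these proteins begin with a 5′ terminal oligopyrimidine (TOP) tract, through which TOR signalling controls their translation according to growth and feeding, and in skeletal muscle ribosome content is known to limit protein synthesis during growth and loading. In whole tissue, fewer cells of a type and less RNA per cell cannot be told apart.

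The 163 probes fell into groups by their descriptions. For 67 the description was that of a pig sequence, for 57 it named the protein of another vertebrate as the best match, and for 39 the best match was a protein of a distant organism such as a bacterium, plant, insect or protist. The 124 probes of the first groups named 61 genes or gene-like entries, of which 35 were on the list of 47 large subunit genes and 21 on the list of 32 small subunit genes, and the rest were paralogs or "-like" entries. No such probe was named for RPL3L, the skeletal muscle form of RPL3, and the gene FAU, which encodes the RPS30 fusion protein, was present under its own name but not found by the rule. Of the 124 probes, 99 were well above background on all 6 arrays and 14 on none. A probe was tested when it was well above background on all 3 arrays of either muscle, which 102 of the 124 probes passed (82.3%), against 59.2% of all probes. Of the 39 probes named after a distant organism, 20 passed.

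The probe sequences shown here are those on which the later comparisons turn. All probes of the array were 60 bases long. The first pair is the RPL7A pair, whose probes differed in opposite directions between the muscles. The first probe shared a run of 16 bases with no other probe of the array, whereas the last 30 bases of the second were also present, unbroken, in 2 probes outside the rule, and the capitals mark the poly(A) signal AATAAA.
RPL7A, A_72_P125191, whole: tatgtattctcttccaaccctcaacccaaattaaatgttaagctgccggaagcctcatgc
RPL7A, A_72_P156051, bases 31 to 60: ataaaagttattAATAAAactttcagccaa

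The next pair, both annotated as RPS28, lay on opposite strands and were complementary over 49 bases. The capitals mark AATAAA in one and its reverse complement in the other.
RPS28, A_72_P146681, bases 17 to 46: ggcccatcatgatctgccgttAATAAAgtg
RPS28, A_72_P327878, bases 4 to 33: cacTTTATTaacggcagatcatgatgggcc

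The last pair shows a detected and an undetected probe of the same name, RPS29. They matched at 49 of 60 positions, and capitals mark the 5 mismatches among the first 30 bases.
RPS29, A_72_P146536, bases 1 to 30: catccagGacatcCCccttaTgcAgaaaca
RPS29, A_72_P298019, bases 1 to 30: catccagCacatcAAccttaGgcGgaaaca

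The hexamer AATAAA, the canonical poly(A) signal, was common in these probes. It was present in 48 of the 124 probes with a pig or other vertebrate description (38.7%), against 12.1% of all probes on the array, searched on the printed strand. Its share was 43.1% among the 102 tested probes and 18.2% among the 22 that were not tested, whereas among all probes the corresponding shares were 14.8% and 8.15%. The reverse complement TTTATT was present in 4.84% of them and in 4.63% of all probes. Large and small subunit probes were similar in this respect, with 38.3% and 40.7% holding AATAAA. The hexamer was also present in 27.6% of the 29 mitochondrial ribosomal protein probes, and in 9.59% of the 73 translation factor probes. The median GC content was 38.3% for the ribosomal protein probes and 40.0% for all probes.

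Over the arrays, 58.5% to 72.4% of the spots were well above background and none was saturated. In these bulk samples 7 of 9 slow fibre genes were tested, and all 7 were higher in PMM (median log2 difference of 0.93), although none passed the adjusted threshold of limma. With slide as a random block limma called 1 of them, the calcium pump gene ATP2A2 (adjusted p = 0.049), where it called 300 probes or 1.16% of all tested. The summed level of the slow fibre genes was 10.83 to 11.28 in LDM and 11.36 to 12.04 in PMM, so the groups did not overlap. Fast fibre genes did not differ in this way. Of 10 listed 7 were tested and 4 were higher in PMM, with a median log2 difference of 0.08. Their summed levels overlapped, at 11.65 to 12.38 in LDM and 11.83 to 12.59 in PMM. Summed levels of adipocyte and leukocyte genes followed the replicate number more than the muscle, and in LDM the leukocyte sum was 3.08, 4.39 and 5.10 on arrays 1 to 3. FABP4 made up most of the adipocyte sum (7.71 and 7.94 on PMM 3). By gene, 3 of 8 adipocyte genes were higher in PMM, including LPL (1.12), and the median log2 difference was -0.37. ADIPOQ (-0.63), PLIN1 (-1.03), CIDEC (-0.86) and CIDEA (-0.78) were lower in PMM within every number, and no adipocyte gene was called. The summed fibroblast level was lower in PMM within every number (6.61 and 6.15, 7.35 and 7.03, 7.78 and 7.24 in LDM and PMM), with 0 of 4 genes higher in PMM. DCN made up most of this sum (7.75 and 7.78 on LDM 3). By mean difference, 6 of 6 endothelial and 6 of 6 leukocyte genes were higher in PMM. Within number 3, however, both sums were slightly lower in PMM (endothelial 7.40 and 7.37, leukocyte 5.10 and 4.95 in LDM and PMM). The part of these in the ribosomal protein differences was not tested. None of the erythrocyte genes was named on a tested probe. Each replicate number was scanned on its own day and held both muscles, and LDM 2 shared a slide with PMM 2, as did LDM 3 with PMM 3.

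No ribosomal protein probe passed the test between the muscles. With limma and Benjamini-Hochberg adjustment over 25834 tested probes, 0 of the 122 tested ribosomal protein probes were called at an adjusted p of 0.05, where the background was 8 probes or 0.031% of all tested. With the replicate number as a block the count was again 0 of 122, against 17 probes or 0.0658% of all tested. At an unadjusted p under 0.05 limma gave 1 of the 122 probes, beside 2.63% of all tested probes, and with the block it gave 2, beside 11.1%. The largest absolute log2 difference among them was 0.99, so none reached a 2-fold difference, whereas 2.9% of all tested probes did. With 3 arrays against 3 the exact permutation test of a single value cannot give a p below 0.1.

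The differences of the ribosomal proteins were small and mostly of one sign, with the signal in PMM slightly below that in LDM, and the sign of the subunit medians was the same under each scaling tried. The median log2 difference (PMM minus LDM) was -0.11 over 50 tested large subunit probes and -0.12 over 47 small subunit probes, beside -0.04 over all tested probes. The middle 50% of the large subunit differences lay between -0.24 and -0.02, and of the small subunit differences between -0.18 and -0.03, whereas over all tested probes they lay between -0.22 and 0.17. The difference was positive for 9 of the 50 large and 8 of the 47 small subunit probes (18% and 17.0%), against 44.2% of all tested probes. For 70 of the 102 probes with a pig or other vertebrate description the 95% interval of limma stayed within a 2-fold difference in either direction, which was the case for 36.4% of all tested probes. These intervals came from the fit without the replicate block, which leaves the pairing of the arrays out. The same holds for the SEs and intervals of single genes below, except where the block is named. The median SD within a muscle was 0.25 for these 102 probes and 0.48 for all tested probes.

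**Figure D1:**
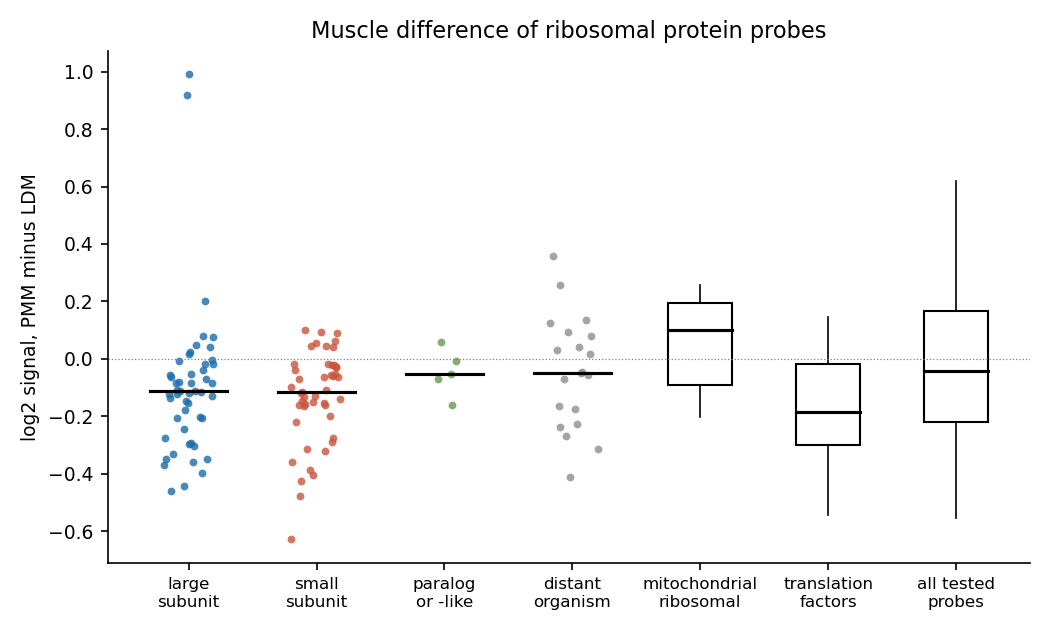
Log2 difference in signal between PMM and LDM (vertical axis) for each tested ribosomal protein probe by class (points, with the median as a bar) and, as boxes, for mitochondrial ribosomal proteins, translation factors and all tested probes (box, middle 50%; lines, 5th to 95th percentile; bar, median). Large and small subunit probes lay close together, with medians of -0.11 and -0.12, and 2 large subunit probes stood above 0.9.

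The large and small subunits did not separate. Their medians were also alike within each replicate number, where the PMM minus LDM medians of the large subunit were -0.03, 0.09 and -0.36 for numbers 1 to 3 and those of the small subunit were -0.06, 0.06 and -0.39. The medians over all tested probes were -0.01, 0.01 and -0.10. Thus both subunits were lower in PMM chiefly within number 3, where 5 of 50 large and 6 of 47 small subunit probes were positive, and number 2 gave the opposite sign, with 30 of 50 and 32 of 47 positive. With the replicate block and number 3 left out, the medians were 0.0031 for the large and 0.026 for the small subunit, beside -0.02 over all probes.

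At the 75th percentile scaling a single array, LDM 3, carried the highest signal for many of these probes. It was the highest of the 6 arrays for 26 of the 50 large and 24 of the 47 small subunit probes (52.0% and 51.1%), against 18.6% of all tested probes. The median deviation from the mean of the 6 arrays was -0.10, 0.04 and 0.23 for large subunit probes on LDM 1 to 3, and -0.18, 0.11 and -0.11 on PMM 1 to 3. For small subunit probes it was -0.03, 0.04 and 0.22 on LDM 1 to 3, and -0.15, 0.11 and -0.13 on PMM 1 to 3. The arrays of both muscles therefore overlapped, with LDM 3 and PMM 2 high and PMM 1 and PMM 3 low in both subunits at this scaling. The order of the arrays depended on the scaling. Over the 102 probes, quantile normalization put LDM 2 (0.27) above LDM 3 (0.16) and PMM 3 near the mean (-0.0058), and with normexp LDM 3 was the highest (0.40) and PMM 3 was at 0.05.

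Without LDM 3 the medians were -0.02 for the large and -0.04 for the small subunit, beside -0.08 over all probes, so that both subunit medians then lay above that of all probes and not below it. Without PMM 1 they were -0.04 and -0.04, beside 0.01 over all probes. LDM 3 also had the lowest share of spots well above background (58.5%) and, among the 6 arrays, the highest summed level of fibroblast (7.78), endothelial (7.40) and leukocyte (5.10) genes, and the part of these in the result was not tested. DCN made up most of that fibroblast sum (7.75). DCN, COL1A1 and COL1A2 were highest on LDM 3, whereas COL3A1 was not (1.42). Among the brightest decile of all tested probes, LDM 3 was the highest array for 18.7%, while for the 70 ribosomal protein probes in that decile the share was 58.6%. Under quantile normalization the share in that decile was 31.4% for ribosomal protein probes, beside 17.3% for all.

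**Figure D2:**
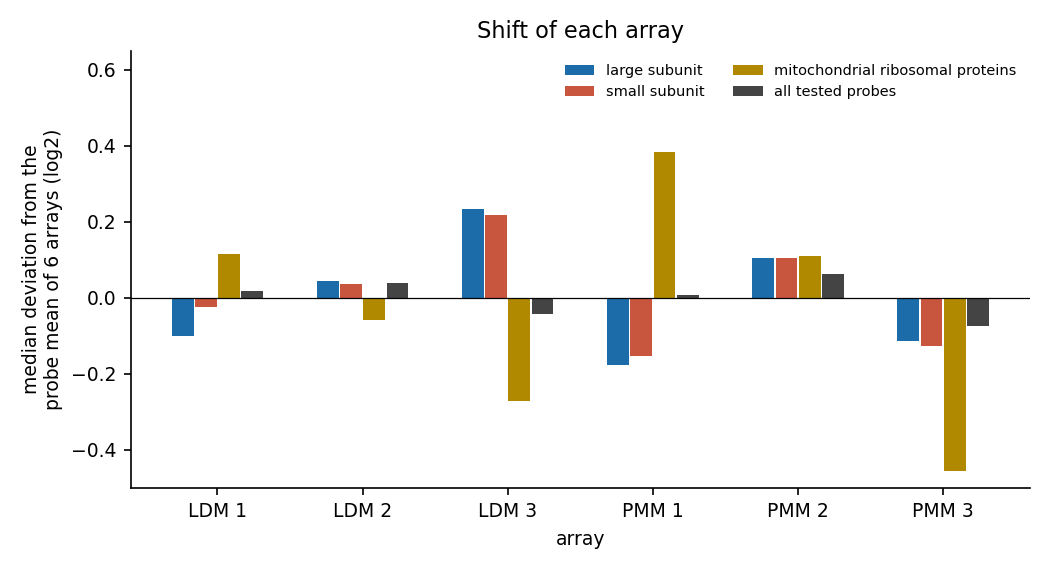
Median deviation of the log2 signal from the mean of the 6 arrays (vertical axis), for each array, over large subunit probes, small subunit probes, mitochondrial ribosomal proteins and all tested probes (bars). At the 75th percentile scaling the cytosolic subunits moved together, highest on LDM 3 (0.23 and 0.22; LDM 2 under quantile normalization), where mitochondrial ribosomal proteins were low (-0.27).

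The groups did not overlap for 7 of the 102 probes (6.86%), close to the background of 6% of all tested probes. One probe, for RPL7A, was higher in PMM on every array, where the background in that direction was 3.11%. The other 6 were lower in PMM on every array (5.88%, against a background of 2.89%) and included probes for RPL35, RPL14, RPL5, RPS16 and RPS3. Of these, RPL35, RPL5 and RPS3 were picked out after their values were seen, and for each of them a brighter probe of the same gene overlapped between the muscles, with log2 differences of -0.14, -0.12 and -0.16. RPL7A, RPL14 and RPS16 were named by a rule that ranked the genes by these same differences. Among the probes named after a distant organism, 1 did not overlap, higher in PMM by 0.26.

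A probe named RPL7A, after a large subunit protein at the surface of the 60S particle, gave the largest difference of all ribosomal protein probes. Both RPL7A probes had this name through the best match to a protein of another vertebrate. Neither was placed on a transcript, so their identity rests on that description. The signal of the brighter RPL7A probe, as log2 relative to the 75th percentile of the array, was 7.27, 7.34 and 7.49 in LDM and 8.59, 8.12 and 8.37 in PMM. Every PMM array was above every LDM array, and the difference was present within each replicate number (1.32, 0.79 and 0.87). The log2 difference was 0.99 ± 0.29 (SE, n = 3 per muscle), a 1.99-fold higher signal in PMM with a 95% interval of 0.33 to 1.66 on the log2 scale.

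This difference did not pass the adjusted test of limma (unadjusted p = 0.0084, adjusted p = 1), nor did it with the replicate block (unadjusted p = 0.0024, adjusted p = 0.199). With slide as a random block limma called it (log2 difference 0.87, adjusted p = 0.033), as it did 1.16% of all tested probes. Under every other alternative limma did not call it, with adjusted p from 0.084 to 1, and the log2 difference ran from 0.88 to 1.11 when single arrays were left out. The mean of both RPL7A probes gave 0.30.

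The second RPL7A probe gave no such difference. Its signal was 5.15, 5.07 and 4.68 in LDM and 4.56, 5.06 and 4.09 in PMM, so that the groups overlapped, and the log2 difference was -0.40 ± 0.35. The 2 probes outside the rule that shared 35 bases with it had log2 differences of -0.26 ± 0.33 and 0.01 ± 0.28, and another that shared 19 bases had -0.35 ± 0.34. None of these 4 probes was higher in PMM beyond its error, and the 2 RPL7A probes shared no run longer than 6 bases.

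**Figure D3:**
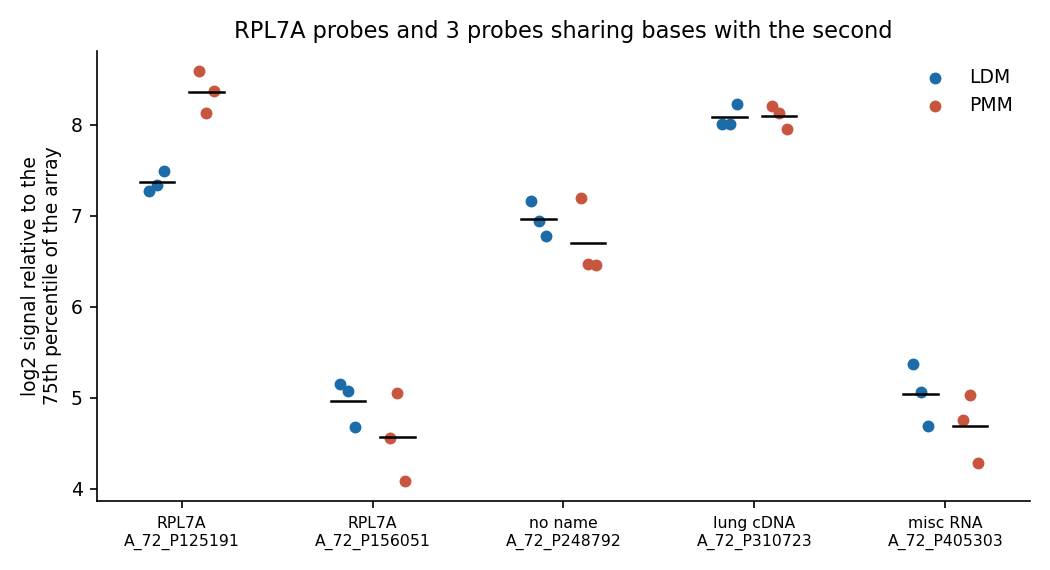
Log2 signal relative to the 75th percentile of the array (vertical axis) for the 2 RPL7A probes and 3 probes outside the rule that share bases with the second, in 3 LDM and 3 PMM arrays (points, with the mean as a bar). The muscles separated only for the first probe, and levels of different probes are not comparable with each other.

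Other large subunit genes that were higher in PMM differed by little. RPLP2, an acidic stalk protein that helps recruit elongation factors, had a signal of 8.95, 8.83 and 9.35 in LDM and 9.45, 9.14 and 9.16 in PMM. Its groups overlapped through LDM 3, and the log2 difference was 0.20 ± 0.30 (95% interval -0.48 to 0.89). RPL27A and RPL7, both core 60S proteins, had log2 differences of 0.08 ± 0.30 and 0.08 ± 0.29, and 2 other RPL7 probes gave -0.20 and -0.09. Both genes were below 0 under quantile normalization and under normexp background correction. The stalk proteins RPLP0 (-0.06 ± 0.39), which anchors the stalk to the ribosome, and RPLP1 (-0.05 ± 0.53) had smaller differences still, with wide intervals.

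Among large subunit genes lower in PMM, RPL14, RPL37A and RPL31 had the largest differences by the brightest probe of each gene. RPL14 had a signal of 2.22, 2.60 and 2.20 in LDM and 2.06, 2.19 and 1.66 in PMM, a log2 difference of -0.37 ± 0.31 with the PMM arrays all below the LDM arrays. The exact permutation test gave p = 0.1 for it, the smallest value possible. RPL14 was named by its rank in these same differences, so this p is not a separate test of it. The 2 other tested RPL14 probes, both dimmer, gave -0.46 ± 0.58 and -0.02 ± 0.29, with overlapping groups. RPL37A (-0.36 ± 0.37) and RPL31 (-0.35 ± 0.41), which lies at the exit of the peptide tunnel, overlapped between muscles, and both of their probes were far dimmer than the 75th percentile of the arrays. With normexp background correction these 2 differences were positive, at 0.08 and 0.14. Without single arrays RPL37A ran from -0.65 (without PMM 1) to -0.14 (without PMM 3), and RPL31 from -0.68 (without PMM 2) to -0.06 (without LDM 2). Leaving out a single array breaks the pair of its number, so these ranges also hold level differences between numbers. Within numbers 1 to 3 the differences were -0.37, -0.27 and -0.41 for RPL31 and -0.12, -0.13 and -0.83 for RPL37A. With the replicate block their SEs were 0.16 and 0.21, and neither was called.

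RPL3, which reaches toward the peptidyl transferase centre, had a signal of 6.43, 6.99 and 7.19 in LDM and 6.56, 7.16 and 7.02 in PMM, with a log2 difference of 0.04 ± 0.34 (95% interval -0.73 to 0.81). The arrays of number 1 were the lowest in both muscles. In all, 7 of 30 tested large subunit genes were higher in PMM by their brightest probe and none was called in either direction, with a median log2 difference of -0.10.

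Small subunit genes ran from -0.42 for RPS16 to 0.09 for RPS29 by the brightest probe. Large subunit genes ran from -0.37 to 0.99, where the upper end was the uncalled RPL7A probe and the next gene was RPLP2 at 0.20. Over single probes the lowest difference was -0.63 in the small and -0.46 in the large subunit. RPS16, which lies near the decoding site, had a signal of 6.71, 6.86 and 7.12 in LDM and 6.26, 6.62 and 6.54 in PMM. The PMM arrays were all below the LDM arrays, with a log2 difference of -0.42 ± 0.29 (95% interval -1.10 to 0.25, exact permutation p = 0.1, adjusted p = 1 in limma). RPS16 was named by its rank in these same differences, so the exact p is not a separate test of it. RPS19, a protein needed for maturation of the 40S subunit, had a log2 difference of -0.39 ± 0.42 with overlapping groups and a probe well below the 75th percentile, and with normexp it was 0.25. Its difference was -0.07 without LDM 3, -0.09 without PMM 1 and -0.68 without LDM 1, each of which breaks a pair. Within numbers 1 to 3 the RPS19 difference was -0.40, -0.16 and -0.60. With the replicate block its SE was 0.18, and it was not called. RPS29, which binds near the mRNA in the 40S head, had a difference of 0.09 ± 0.32, and with normexp -0.10. Another RPS29 probe, which shared 40 bases with the brightest, also gave 0.09. A dimmer RPS29 probe gave -0.41 ± 0.42, with overlapping groups and differences of -0.48, -0.11 and -0.63 within numbers 1 to 3.

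RPS6, the best known target of the S6 kinases, had a signal of 8.99, 8.45 and 9.12 in LDM and 9.05, 8.76 and 8.67 in PMM. The groups overlapped and the log2 difference was -0.03 ± 0.32 (95% interval -0.75 to 0.69). RPSA, also known as the laminin receptor precursor, had 4 tested probes with differences between -0.32 and -0.13. RPS27A, a ubiquitin fusion protein, had 0.05 ± 0.39 and FAU, the other ubiquitin-like fusion, had 0.07 ± 0.29, with 8.44, 8.46 and 8.92 in LDM and 8.77, 8.61 and 8.65 in PMM. Together with FAU, 5 of the 22 tested small subunit genes were higher in PMM by their brightest probe, none was called, and the median log2 difference was -0.09.

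Few paralogs were represented. RPL7L1, RPL26L1 and RPL36AL, which are expressed copies of RPL7, RPL26 and RPL36A, had log2 differences of -0.01 ± 0.32, -0.05 ± 0.32 and -0.07 ± 0.33. Probes described as RPL34-like and RPL39-like had differences of -0.16 and 0.06. All 5 of these probes were detected on all 6 arrays, and all of their groups overlapped.

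**Figure D4:**
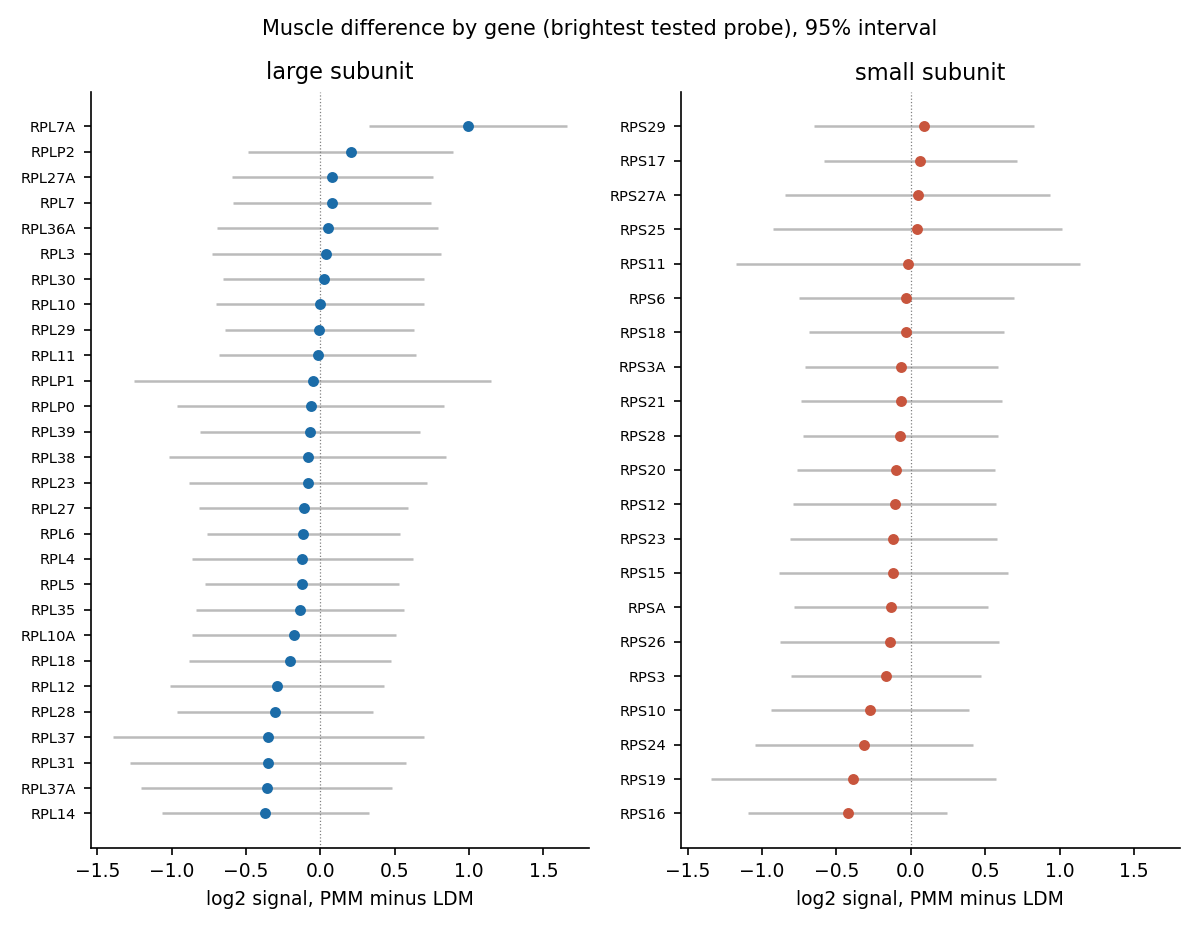
Log2 difference in signal between PMM and LDM (horizontal axis) with the 95% interval of limma (lines) for the brightest tested probe of the large and small subunit genes reported here. RPL7A (0.99) was the only gene whose interval did not include 0, and this is an unadjusted interval from the fit without the replicate block.

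Probes of the same gene could be compared for 26 subunit genes with at least 2 tested probes, 72 probes in all. The log2 differences within a gene spanned a median range of 0.18, and 14 genes had a range under 0.2. The range exceeded 1 for RPL7A (1.39) and RPL30 (from -0.27 to 0.92). The deviating RPL30 probe had a signal of -2.59, -1.98 and -4.39 in LDM and -3.25, -2.16 and -0.78 in PMM, so the difference came from number 3 alone (3.60, against -0.66 and -0.18 for numbers 1 and 2). With the replicate block and without number 1 it was called in limma (log2 difference 1.71, adjusted p = 0.0013), beside 3.01% of all tested probes. The brightest RPL30 probe had a difference of 0.02 ± 0.30.

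For 7 genes (RPL11, RPL12, RPS3A, RPS18, RPS23, RPS28 and RPS29) one probe was well above background on all 6 arrays and another on none. The RPS29 pair printed above is one of them, with 49 matching positions out of 60. The genes RPL9, RPL15, RPL21, RPL24 and RPL36 had no tested probe and therefore no value for the muscle difference.

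Most probes that shared sequence gave similar muscle differences. Of 31 pairs on the same strand with at least 30 shared bases in a row, 15 lay within the rule and 16 joined a ribosomal protein probe with one outside it. The gap between the log2 differences of a pair had a median of 0.05 and was under 0.1 for 24 pairs, and the largest was 0.41, for RPL7A. The probes of such a pair share sequence and were not counted as independent, and none was placed on a transcript here. The 14 probes outside the rule had log2 differences from -0.26 to 0.19, including 0.19 for the one sharing 47 bases with RPLP2 and 0.03 and 0.02 for those sharing 48 and 38 bases with RPL3. The RPS28 probes on opposite strands had differences of -0.07 ± 0.29 and 0.06 ± 0.44. Their mean signals were far apart, at 9.51 in LDM and 9.44 in PMM for A_72_P146681 and -0.60 and -0.54 for A_72_P327878. The dimmer probe stayed in the small subunit counts, among the positive ones, although its strand is opposite to that of the brighter probe.

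**Figure D5:**
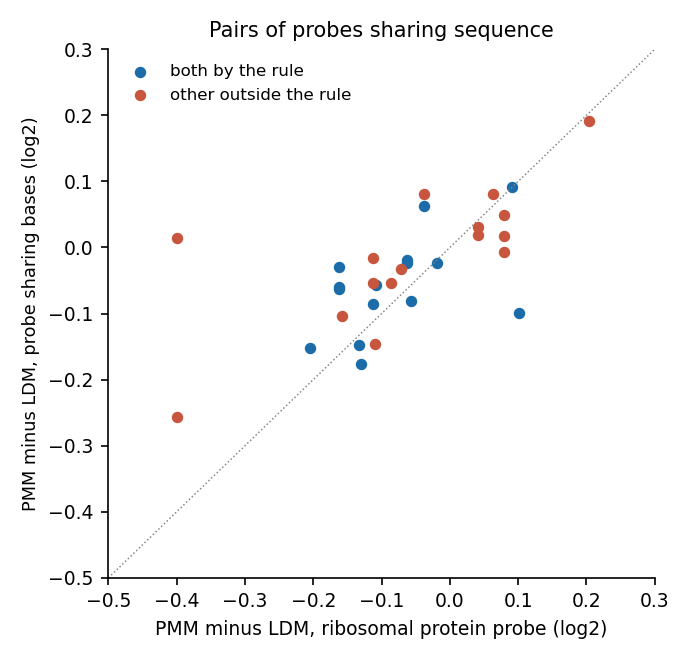
Log2 difference in signal between PMM and LDM for pairs of same-strand probes sharing at least 30 bases, with the ribosomal protein probe on the horizontal axis and the other probe on the vertical axis (points), coloured by whether the other probe was found by the rule. Most points lie near the dotted line of equality, with a median gap of 0.05, and the 2 pairs of the second RPL7A probe lie at the left.

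The cytosolic probes were set beside 2 related groups. Mitochondrial ribosomal proteins, which belong to the separate ribosome of that organelle, had a median log2 difference of 0.10 over 21 tested probes, with 13 positive and none called. Their within-number medians were 0.27, 0.14 and -0.17 for numbers 1 to 3, so their sign also changed between numbers. Their median deviation was highest on PMM 1 (0.38) and lowest on PMM 3 (-0.46), whereas that of the cytosolic subunits was highest on LDM 3 (0.23 for the large subunit). Translation factors had a median of -0.18 over 59 tested probes, with 14 positive (23.7%) and none called. Their within-number medians were -0.12, -0.01 and -0.41 for numbers 1 to 3, so they too were lower in PMM mostly within number 3. Their median deviation was highest on LDM 1 (0.28) and lowest on PMM 3 (-0.34). The difference between these groups was not tested, and their medians were not recomputed under other scalings.

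Among other genes of the pathway none passed the test in limma. Of the elongation factors 3 of 8 listed genes were tested, with EEF1A1, which brings aminoacyl-tRNA to the ribosome, at -0.12 and EEF1B2, its exchange factor subunit, at 0.09. Of 17 listed mRNAs with a TOP tract 7 were tested, 4 of them positive, with HNRNPA1 at 0.18 and the 40S scaffold protein RACK1 at -0.15. Of the initiation factors 10 of 33 were tested and 1 was positive, with the scaffold EIF4G1 at -0.995 ± 0.65 and the helicase EIF4A2, which unwinds the mRNA, at -0.34 ± 0.32. The EIF4G1 probe was detected on 5 arrays and its within-number differences were -0.19, 0.28 and -3.08, so its value came from number 3.

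For ribosome assembly 5 of 29 listed genes were tested and all 5 were negative but not called, with NOP58, a box C/D snoRNP protein, at -0.29 and TAF1B, a factor of RNA polymerase I, at -0.27. Of 15 genes listed for TOR signalling and the control of ribosomal protein mRNAs 2 were tested, the transcription factor MYC at 0.37 ± 0.41 and RPS6KB1, an S6 kinase that TOR phosphorylates, at -0.33 ± 0.35. The median log2 differences were 0.07 for elongation factors, 0.07 for TOP mRNAs, -0.17 for initiation factors and -0.19 for assembly factors, beside -0.04 over all tested probes. These lists shared genes, and most of their members had no tested probe here.

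The 20 tested probes named after a distant organism did not share this pattern of arrays. The median log2 difference of these probes was -0.05, 9 of the 20 were positive and LDM 3 was the highest array for 4 of them. These probes met the rule by their descriptions but were kept out of the counts of subunits, since a description of a bacterial or plant protein does not name a pig cytosolic ribosomal protein.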

How the data were processed

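The authors deposited linear spot intensities of the Cy3 channel, made with Agilent Feature Extraction 10.5.1.1 (per the file headers), which subtracted the background and marked outlier spots. The values were not normalized between arrays. The deposited series table held the same intensities. Control and outlier spots were left out, repeated spots averaged, and log2 intensity minus log2 of the 75th percentile of all non-control spots of each array was analysed with limma 3.58.1 in R 4.3.3. Probes well above background on all 3 arrays of either muscle, with at least 2 values per muscle, were tested (two-sided, Benjamini-Hochberg, threshold 0.05), and the test was checked on simulated data.

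Probes were named from the files' own names and descriptions and, for the other gene lists, through RefSeq accessions, gene numbers or symbols. A gene was represented by its brightest tested probe. Named genes were those called, the 5 highest and 5 lowest differences among subunit genes detected on all 6 arrays, genes chosen for their role, and up to 2 of each other list. Some genes that met this rule are not reported here. The members and lists were chosen with earlier results of these data known.

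Both muscles came from each of 3 pigs, but the sources do not say that the replicate number is the pig. Deviations from the muscle means correlated between same-numbered arrays (r = 0.62, 0.70 and 0.56 over 25724 probes with a value on every array), so the number was taken to pair the arrays. Over the 102 tested ribosomal protein probes with a pig or other vertebrate description r was 0.54, 0.65 and 0.14, and LDM 3 correlated slightly more with PMM 1 (0.17) than with PMM 3. Alternatives covered normalization, background correction (normexp, offset 50), outliers, the filter, the replicate block, slide as a random block and left-out arrays. The number of arrays limits the precision.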

Additional observations from a re-analysis of the deposited data

How the results depend on the processing

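Over the alternatives without a left-out array, ribosomal protein probes called were 0 except for 1 with slide as a random block (RPL7A, 0.87, adjusted p = 0.033). With the replicate block the count of all probes called rose from 8 to 17, and no ribosomal protein call changed. All probes called were 300 with slide as a random block, 1 with normexp and 0 with the percentile over detected probes, with outliers kept, with no filter or with detection on all 6 arrays. Single arrays left out gave 0 or 1. With arrays or whole replicate numbers left out (the latter under the block, chosen after seeing the data), all probes called ran from 0 to 802, the highest without number 1, and ribosomal protein probes from 0 to 1. The subunit medians then ran from -0.22 to 0.0031 (large) and from -0.21 to 0.026 (small), positive only without number 3. With normexp they were -0.23 and -0.22, while the median of all probes moved from -0.04 to 0.10.

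The sign of some small differences changed. With normexp, RPS29 was at -0.098, RPL27A at -0.13, RPL7 at -0.16, RPS19 at 0.25, RPL37A at 0.085, RPL31 at 0.14, RPL3 at -0.10 and FAU at -0.12. With quantile normalization, RPL27A was at -0.026, RPL7 at -0.0052, RPL3 at -0.0071 and RPL7L1 at 0.020, and with median centring RPL3 was at -0.016 and RPS27A at -0.012. With the percentile over detected probes RPS6 was at 0.0033 and RPL7L1 at 0.025. With slide as a random block RPL27A was at -0.046, RPLP0 at 0.011 and FAU at -0.034. As the mean of all probes of the gene RPS29 was at -0.075, RPL7 at -0.070 and FAU at -0.010. With the block and without number 1, RPL27A was at -0.080, RPL3 at -0.0020, RPLP0 at 0.032 and FAU at -0.062. Without number 2, RPL7 was at -0.049, RPL3 at -0.021, RPS27A at -0.29 and RPL7L1 at 0.015. Without number 3, RPS6 was at 0.18, RPSA at 0.038, RPL7L1 at 0.041 and RPL36AL at 0.054. With single arrays left out, the range was -0.12 to 0.23 for RPS29, -0.00047 to 0.23 for RPL27A, -0.021 to 0.21 for RPL7, -0.18 to 0.22 for RPL3, -0.39 to 0.16 for RPLP0, -0.23 to 0.11 for RPS6, -0.32 to 0.29 for RPS27A, -0.016 to 0.22 for FAU, -0.15 to 0.18 for RPL7L1, -0.24 to 0.11 for RPL26L1 and -0.27 to 0.089 for RPL36AL. Without a change of sign, it was -0.68 to -0.067 for RPS19, -0.68 to -0.061 for RPL31, -0.65 to -0.14 for RPL37A, -0.48 to -0.22 for RPL14, 0.095 to 0.36 for RPLP2 and -0.18 to -0.036 for RPSA. A single array left out breaks the pair of its number, so these ranges also hold level differences between numbers. The cause of these changes was not tested.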
